A study of Mus musculus with 9 samples.

Results

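The genes of glycolysis and of the transcriptional response to hypoxia were followed as a set of 40 listed symbols, read from a gene table of 17565 genes in 9 mRNA libraries of MS1 cells, an endothelial line from the mouse pancreas. The set holds 23 glycolytic genes (4 carriers of glucose or lactate, 15 enzymes of the chain and 4 genes at its branch points) and 17 hypoxia response genes outside glycolysis. It was listed by symbol, with no measured value in the rule, but with earlier results of these data known. Of the 40 genes, 38 passed the filter on low values (at least 0.5 CPM in at least 3 libraries). The 3 groups had 3 libraries each. TAZ-CAMTA1 cells carried the lentiviral construct pCDH-TAZ-CAMTA1, for the fusion protein that marks epithelioid hemangioendothelioma, a vascular cancer. TAZ4A cells carried the TAZ construct pCDH-TAZS4A, and Control cells carried pCDH-puro. All 3 groups thus share the parental line and a lentiviral pCDH backbone, and the labels name no other treatment. TAZ-CAMTA1 and TAZ4A are called the construct groups below.

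Glycolysis splits glucose to pyruvate in the cytosol, and lactate dehydrogenase and the lactate carriers let the chain run without oxygen. In low oxygen the factors HIF-1α (Hif1a) and HIF-2α (Epas1) escape hydroxylation by the EGLN enzymes, pair with ARNT and bind a short element in the promoters of carriers, glycolytic enzymes and of genes for mitochondrial turnover, collagen hydroxylation and feedback. Much of the control of the factors is on protein stability, so their own mRNA need not move with their targets. Endothelial cells are known to rely strongly on glycolysis, and Pfkfb3 is a regulator of that flux in vessel sprouting.

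Reads assigned to genes numbered 21966004 to 34224715 per library, so 3 reads, the limit that a count of 0 allows, stood for 0.0878 to 0.139 CPM (counting error only). All 10 endothelial markers were above 0.5 CPM, and their summed level was 8957 to 11295 CPM in TAZ-CAMTA1, 6709.7 to 6900.1 CPM in TAZ4A and 9864 to 10191 CPM in Control. Of these 10, 4 were called lower in TAZ4A against Control over all 9 libraries (11.7% of all genes tested) and 0 in TAZ-CAMTA1 against Control. In TAZ-CAMTA1 against TAZ4A 5 were higher (19.4%). Without TAZ-CAMTA1 replicate 2, all 10 were called lower in TAZ4A against Control (30.6% of all genes). In TAZ-CAMTA1 against Control 5 were then higher and 2 lower (28.3% and 32.6%). In TAZ-CAMTA1 against TAZ4A 9 were then higher (30.5%). Of 6 fibroblast markers 5 were tested, with a summed level of 13.1 to 19.7 CPM in TAZ-CAMTA1, 19.1 to 20.9 CPM in TAZ4A and 6.16 to 7.38 CPM in Control. Against Control 5 of them were called higher in TAZ4A over all 9 libraries (13.2% of all genes) and 4 in TAZ-CAMTA1 (16.8%). These counts against Control were the same without TAZ-CAMTA1 replicate 2 (28.1% and 28.3% of all genes). Of 5 epithelial markers 2 were tested (21.0 to 49.5 CPM in TAZ-CAMTA1, 27.7 to 29.9 CPM in TAZ4A and 20.8 to 24.0 CPM in Control). Of 6 leukocyte markers 1 was tested, Cd68 (log2 fold change 0.48, adjusted p = 0.0318 in TAZ-CAMTA1 against TAZ4A), and the list summed to 456 to 704 CPM in TAZ-CAMTA1, 394 to 402 CPM in TAZ4A and 451 to 524 CPM in Control. Of 6 acinar and islet markers 3 are in the table, and none of these reached 0.5 CPM. The part of these markers in the results below was not tested. Wwtr1, the gene of TAZ, read 328 to 492 CPM in TAZ-CAMTA1, 319 to 335 CPM in TAZ4A and 536 to 570.3 CPM in Control. Its range lay below that of Control in both construct groups. The species and sequence of the constructs are not given in the sources used here, so this value of the mouse gene need not include transgene RNA, and it does not check the label TAZ4A. Camta1 read 12.5 to 13.5 CPM in TAZ-CAMTA1, 4.74 to 5.20 CPM in TAZ4A and 3.41 to 5.11 CPM in Control. In bulk RNA, fewer cells that express a gene and less of its RNA per cell cannot be told apart.

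One library, TAZ-CAMTA1 replicate 2, departed from the rest, and the member results are given with it and without it where its absence changes a call. Its level relative to the mean of TAZ-CAMTA1 replicates 1 and 3 went down with transcript length, with a Spearman correlation of -0.751 across 11298 genes and of -0.631 across the 38 tested members (a description across genes, which are not replicates). Among the members, long transcripts read low in that library, as for Ero1l (-0.94 on the log2 scale), Kdm3a (-0.79) and Hif1a (-0.74). Many short ones read high, as for Eno1 (0.78), Ankrd37 (0.74) and Aldoa (0.58). Members that went against this order were Slc16a3 (0.51) and Pfkl (0.47), with long transcripts, and Adm (-0.22) and Gapdh (-0.05), with short ones. In that library multiply mapped reads were 30.6% of all junction reads, against 20.8% to 22.2% in the other 8 libraries.

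**Figure D1:**
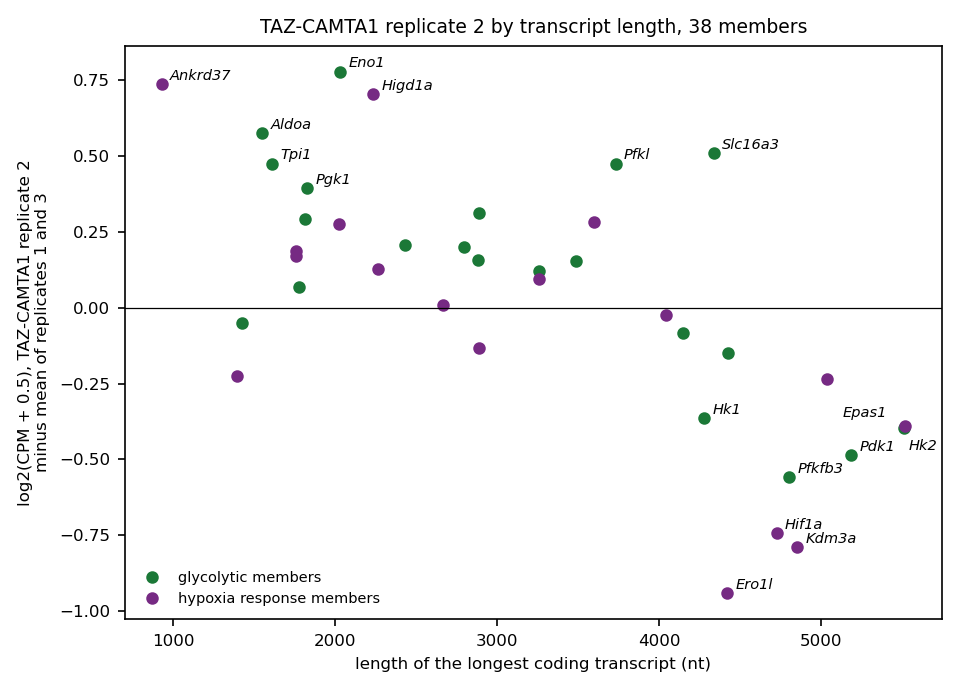
Difference between TAZ-CAMTA1 replicate 2 and the mean of TAZ-CAMTA1 replicates 1 and 3 (vertical axis, log2(CPM + 0.5) units) against the length of the longest coding transcript (horizontal axis, nt) for the 38 tested members, green for glycolytic and purple for hypoxia response genes. Ero1l, Kdm3a and Hif1a, all with long transcripts, lie lowest, and Eno1 and Ankrd37 highest.

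More members were higher than lower in both construct groups when set against the Control libraries, which the comparisons share. In TAZ-CAMTA1 against Control, 27 of the 38 tested members rose and 2 fell (limma, adjusted p under 0.05), where 16.8% of all 12350 tested genes rose and 15.3% fell. Log2 fold changes are given with their standard error, and means with SD over 3 libraries. The median log2 fold change was 0.60 over the members and -0.03 over all genes tested. TAZ4A against Control gave 11 members higher and 5 lower, where 13.2% of genes rose and 11.7% fell, with medians of 0.15 over the members and -0.01 over all genes. TAZ-CAMTA1 against TAZ4A gave 15 higher and 2 lower, where 19.4% of genes rose and 18.5% fell, with medians of 0.21 and -0.02.

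Split by class, the counts were as follows, with no test of a difference between the classes. Of all genes tested 16.8% rose and 15.3% fell in TAZ-CAMTA1 against Control. The shares were 13.2% and 11.7% in TAZ4A against Control and 19.4% and 18.5% in TAZ-CAMTA1 against TAZ4A. Of the 21 tested glycolytic members 14 rose and 1 fell in TAZ-CAMTA1 against Control, 7 rose and 1 fell in TAZ4A against Control, and 6 rose and 2 fell in TAZ-CAMTA1 against TAZ4A. Of the 17 hypoxia response members 13 rose and 1 fell in TAZ-CAMTA1 against Control, 4 rose and 4 fell in TAZ4A against Control, and 9 rose and 0 fell in TAZ-CAMTA1 against TAZ4A. For that count of 0 by limma, 2 hypoxia response members were lower at an unadjusted p under 0.05. By edgeR on whole reads 0 were lower at an adjusted p under 0.05 and 2 at an unadjusted p under 0.05. In that comparison the median log2 fold change was 0.77 over the hypoxia response members and 0.20 over the glycolytic ones, or 0.88 and 0.06 without TAZ-CAMTA1 replicate 2.

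TAZ-CAMTA1 replicate 2 is not part of TAZ4A against Control, but the 3 comparisons share 1 estimate of the spread, which includes that library. Without it the member fold changes of TAZ4A against Control stayed the same. The standard error of Eno1 in that comparison, for example, went from 0.21 to 0.075. Leaving out TAZ-CAMTA1 replicate 2 raised the calls of all genes and of members together. TAZ-CAMTA1 against Control then had 29 members higher and 3 lower (all genes 28.3% and 32.6%). TAZ4A against Control had 20 higher and 8 lower (all genes 28.1% and 30.6%), and TAZ-CAMTA1 against TAZ4A had 21 and 5 (all genes 30.5% and 32.5%). By class, the glycolytic members higher and lower were then 16 and 2 in TAZ-CAMTA1 against Control, 12 and 3 in TAZ4A against Control and 9 and 3 when TAZ-CAMTA1 was set against TAZ4A. The hypoxia response members were 13 and 1 in TAZ-CAMTA1 against Control, 8 and 5 in TAZ4A against Control and 12 and 2 when TAZ-CAMTA1 was set against TAZ4A. At a false discovery rate under 0.05, the authors' deposited table has 25 members higher and 2 lower in TAZ-CAMTA1 against Control (all its genes 13.4% higher and 8.64% lower), 10 and 3 in TAZ4A against Control (11.5% higher and 6.76% lower) and 17 and 4 in TAZ-CAMTA1 against TAZ4A (14% higher and 13.4% lower). Whether the libraries of a group are separate cultures is not stated in the labels, and the p-values then measure only the spread between libraries, which may be technical.

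Reads across splice junctions, counted with those that map to several places, gave a second measure of the same members, added after the data were seen. Over all 9 libraries, 17 members rose and 0 fell in TAZ-CAMTA1 against Control (all genes 6.45% higher and 3.91% lower), 9 rose and 0 fell in TAZ4A against Control (5.52% higher and 2.66% lower), and 11 rose and 0 fell in TAZ-CAMTA1 against TAZ4A (6.92% higher and 8.85% lower). At an unadjusted p under 0.05 the members lower were 1, 3 and 5 in the same order of comparisons. Without TAZ-CAMTA1 replicate 2 the junction counts were 29 higher and 2 lower (all genes 20.6% higher and 17.3% lower), 20 and 4 (22.9% higher and 14.9% lower) and 19 and 6 (19.6% higher and 23.5% lower).

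**Figure D2:**
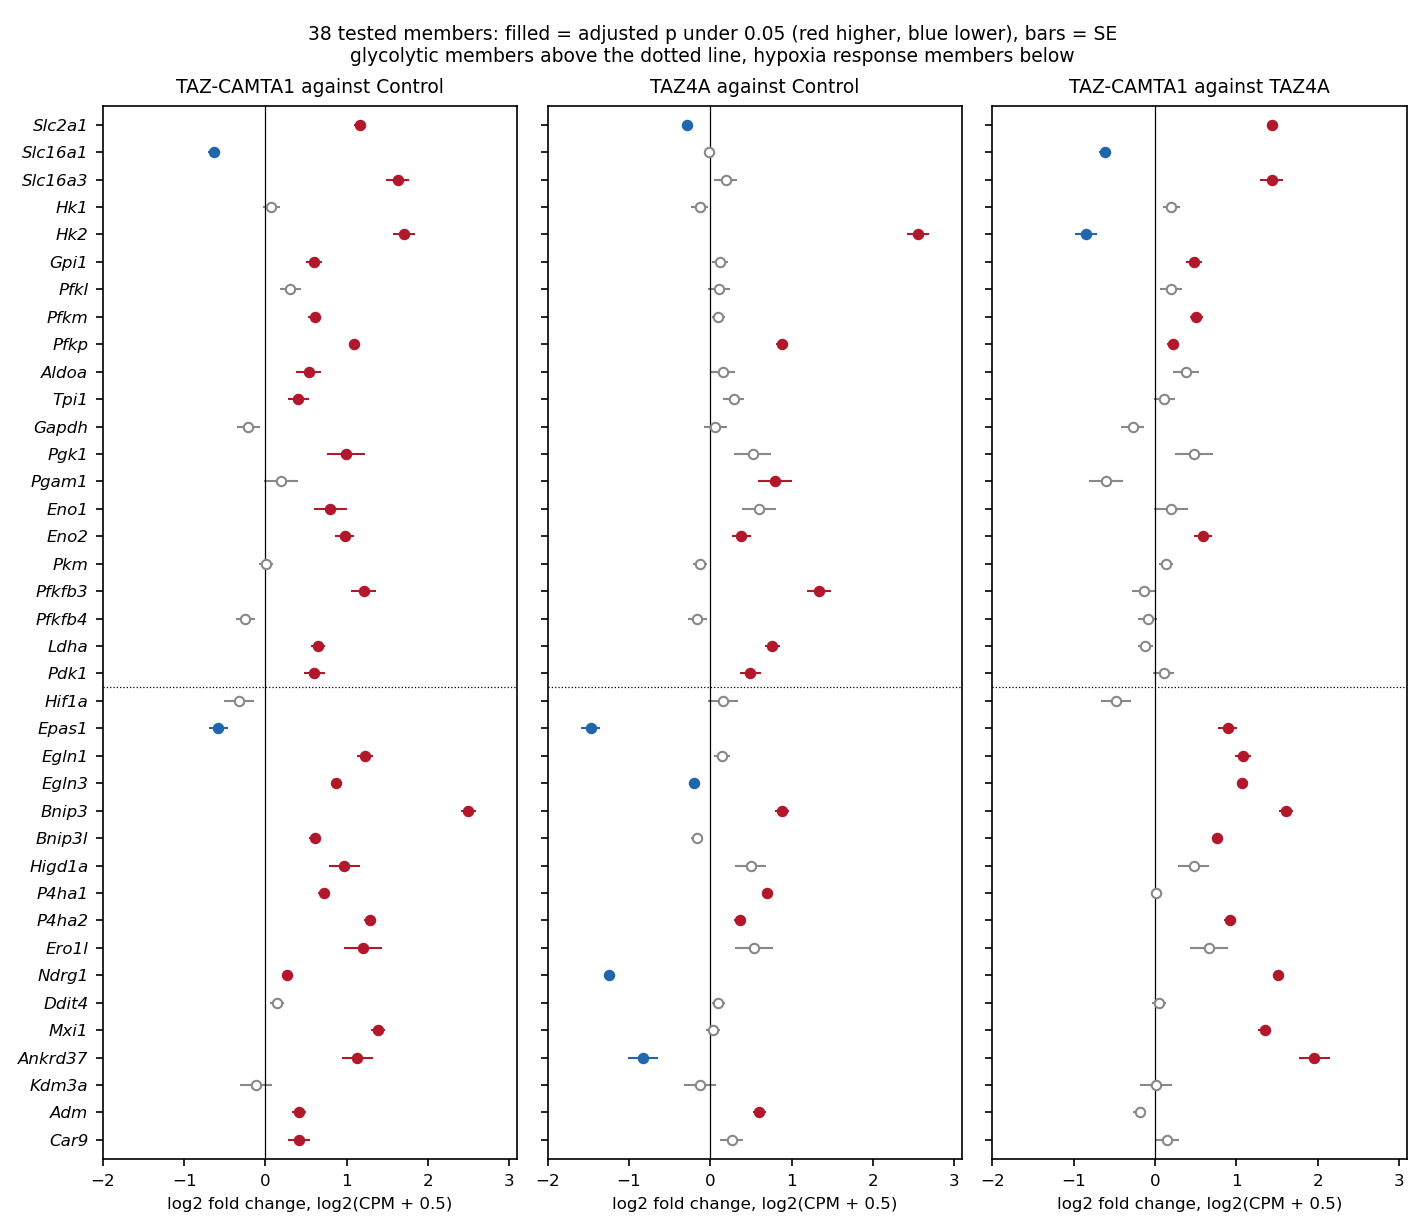
Log2 fold changes (horizontal axes, on the log2(CPM + 0.5) scale) of the 38 tested members in TAZ-CAMTA1 against Control, TAZ4A against Control and TAZ-CAMTA1 against TAZ4A. Points are limma estimates over 9 libraries with standard errors, filled where the adjusted p was under 0.05 (red higher, blue lower). Bnip3 and Hk2 lie farthest right, at 2.496 in TAZ-CAMTA1 and 2.55 in TAZ4A against Control, and Epas1 farthest left, at -1.47 in TAZ4A.

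The promoters are shown for the 6 members with a log2 fold change of at least 1 over all 9 libraries in TAZ-CAMTA1 against both other groups and a window in the sequence table, a choice made on their values: the mitophagy receptor Bnip3, the ankyrin repeat gene Ankrd37, the MYC antagonist Mxi1, the oxygen sensor Egln1 and the carriers Slc2a1 and Slc16a3. Each is the 250 bases before a start site (RefSeq, GRCm38), printed 5′ to 3′ on the strand of the gene, with capitals for ACGTG or GCGTG, the core letters of the hypoxia response element, on either strand. The letters CACGTG hold ACGTG on both strands and count as a pair of overlapping matches. The windows lie at chr7:138909507-138909756 (Bnip3, minus strand), chr8:45999851-46000100 (Ankrd37, minus strand), chr19:53329163-53329412 (Mxi1, plus strand, the first of its start sites with a match), chr8:124949255-124949504 (Egln1, minus strand), chr4:119108495-119108744 (Slc2a1, plus strand) and chr11:120948817-120949066 (Slc16a3, plus strand).
Bnip3: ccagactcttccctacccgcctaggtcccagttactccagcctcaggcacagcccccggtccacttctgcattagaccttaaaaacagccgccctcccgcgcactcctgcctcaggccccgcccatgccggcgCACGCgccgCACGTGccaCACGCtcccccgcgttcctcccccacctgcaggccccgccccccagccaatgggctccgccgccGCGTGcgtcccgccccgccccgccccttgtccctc
Ankrd37: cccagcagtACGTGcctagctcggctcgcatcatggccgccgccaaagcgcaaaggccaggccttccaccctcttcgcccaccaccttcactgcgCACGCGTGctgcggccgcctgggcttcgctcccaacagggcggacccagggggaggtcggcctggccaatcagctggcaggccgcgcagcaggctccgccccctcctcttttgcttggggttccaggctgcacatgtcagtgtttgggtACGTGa
Mxi1: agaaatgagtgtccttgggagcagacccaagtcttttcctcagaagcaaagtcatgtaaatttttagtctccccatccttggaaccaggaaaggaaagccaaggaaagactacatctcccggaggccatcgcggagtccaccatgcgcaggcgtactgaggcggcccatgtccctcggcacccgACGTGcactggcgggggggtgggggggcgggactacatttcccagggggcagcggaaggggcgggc
Egln1: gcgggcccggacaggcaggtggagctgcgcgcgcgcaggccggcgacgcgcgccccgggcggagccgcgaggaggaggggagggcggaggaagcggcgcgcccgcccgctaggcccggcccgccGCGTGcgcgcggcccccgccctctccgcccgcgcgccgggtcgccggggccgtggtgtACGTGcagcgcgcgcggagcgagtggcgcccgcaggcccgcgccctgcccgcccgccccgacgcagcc
Slc2a1: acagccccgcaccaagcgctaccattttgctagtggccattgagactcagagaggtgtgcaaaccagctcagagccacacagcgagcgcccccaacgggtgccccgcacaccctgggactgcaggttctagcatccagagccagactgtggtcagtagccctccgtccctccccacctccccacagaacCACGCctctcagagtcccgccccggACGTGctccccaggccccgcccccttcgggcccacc
Slc16a3: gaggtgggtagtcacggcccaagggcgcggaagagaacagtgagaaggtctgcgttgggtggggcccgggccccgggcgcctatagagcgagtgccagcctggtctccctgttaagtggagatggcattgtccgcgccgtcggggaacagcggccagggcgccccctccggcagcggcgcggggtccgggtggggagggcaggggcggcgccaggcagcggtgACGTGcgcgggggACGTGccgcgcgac

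These 6 windows held 5 matches in Bnip3, 4 in Ankrd37, 1 in Mxi1 and 2 each in Egln1, Slc2a1 and Slc16a3. Promoter windows were found for 36 of the 40 members (53 windows, since some genes have several start sites), and not for Bnip3l, Epas1, Ndrg1 and Slc2a3. ACGTG on either strand lay in 26 of the 53 member windows (49.1%) and in 16.6% of all 32851 windows of the table, and ACGTG or GCGTG in 42 (79.2%) and in 38.6%. Counted by gene, 11 of 14 hypoxia response members and 11 of 22 glycolytic members had ACGTG in at least 1 window. Genes that moved and genes that did not both had such letters: Hif1a and Ddit4, which passed in no comparison over all 9 libraries, hold ACGTG as well. Members were listed as known hypoxia or glycolysis genes, and a match of letters is a description and no evidence of binding.

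The carriers moved in opposite directions in TAZ-CAMTA1. Slc2a1 encodes GLUT1, the main glucose carrier of endothelium. It had 1057, 1149 and 1057 CPM in the TAZ-CAMTA1 libraries, 404, 398 and 394 CPM in the libraries labelled TAZ4A and 499, 490.2 and 469 CPM in the Control libraries. All TAZ-CAMTA1 libraries lay above all Control libraries and all TAZ4A libraries below them. Its log2 fold change was 1.16 ± 0.067 (adjusted p = 8.3e-06) in TAZ-CAMTA1 against Control (1.12 without replicate 2), -0.28 ± 0.067 (adjusted p = 0.0144) in TAZ4A against Control and 1.45 ± 0.067 (adjusted p = 1.3e-06) in TAZ-CAMTA1 against TAZ4A (1.41 without replicate 2). The fall in TAZ4A lost its call in 6 of 21 other settings.

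Slc16a3, the lactate exporter MCT4, had 37.0, 51.9 and 35.6 CPM in the TAZ-CAMTA1 libraries, 15.6, 15.2 and 13.7 CPM in the libraries labelled TAZ4A and 13.1, 13.1 and 12.5 CPM in the Control libraries. The TAZ-CAMTA1 libraries were 3.21-fold above Control on the means, with no overlap, and replicate 2 the highest of them. The log2 fold change was 1.62 ± 0.14 (adjusted p = 7.6e-05) against Control and 1.44 ± 0.14 (adjusted p = 1.0e-04) against TAZ4A, or 1.46 and 1.27 without replicate 2, and 0.19 ± 0.14 (adjusted p = 0.394) in TAZ4A against Control (adjusted p = 0.0203 without TAZ-CAMTA1 replicate 2). Slc16a1, the lactate carrier MCT1, had 104, 95.1 and 106 CPM in the TAZ-CAMTA1 libraries, 158, 155 and 157 CPM in the libraries labelled TAZ4A and 154, 158 and 163 CPM in the Control libraries. The TAZ-CAMTA1 libraries lay below both other groups, whose values overlapped, at -0.63 ± 0.070 (adjusted p = 2.8e-04) against Control and -0.62 ± 0.070 (adjusted p = 2.2e-04) against TAZ4A (-0.58 and -0.57 without replicate 2). In TPM, which allows levels of genes to be set side by side, Slc16a3 made up 40.9% ± 6.50 of the summed Slc16a1 and Slc16a3 level in TAZ-CAMTA1, 14.0% ± 0.801 in TAZ4A and 12.3% ± 0.592 in Control (SD, n = 3 each). The TAZ-CAMTA1 libraries had 37.8%, 48.4% and 36.5%, with replicate 2 highest. Slc2a3, the carrier GLUT3, stayed at or below 0.117 CPM in every library and did not pass the filter on low values.

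**Figure D3:**
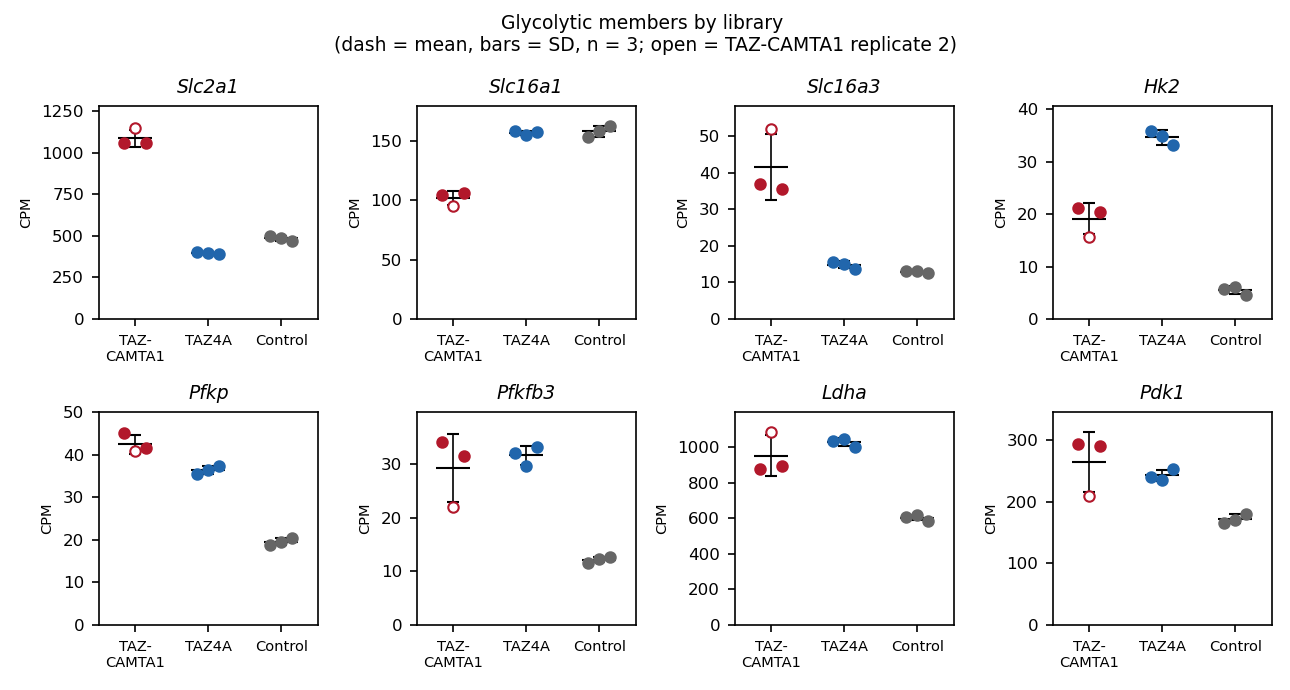
Levels (CPM, vertical axes) of 8 glycolytic members in the 3 libraries of TAZ-CAMTA1, TAZ4A and Control, with group mean and SD (n = 3). Open circles mark TAZ-CAMTA1 replicate 2. Slc2a1 and Slc16a3 were highest in TAZ-CAMTA1, Slc16a1 was lowest there, Hk2 was highest in TAZ4A, and Pfkp, Pfkfb3, Ldha and Pdk1 lay above Control in every library of both other groups.

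At the entry of the chain, hexokinase phosphorylates glucose. Hk2, the isozyme that hypoxia and growth signals induce, had 21.2, 15.7 and 20.4 CPM in the TAZ-CAMTA1 libraries, 35.9, 34.8 and 33.1 CPM in the libraries labelled TAZ4A and 5.76, 6.10 and 4.67 CPM in the Control libraries. The order TAZ4A above TAZ-CAMTA1 above Control held with no overlap between groups. The mean was 3.47-fold that of Control in TAZ-CAMTA1 and 6.29-fold in TAZ4A. The log2 fold changes were 1.70 ± 0.14 (adjusted p = 5.7e-05) in TAZ-CAMTA1 against Control, 2.55 ± 0.14 (adjusted p = 3.4e-06) in TAZ4A against Control and -0.85 ± 0.14 (adjusted p = 0.00153) in TAZ-CAMTA1 against TAZ4A (1.84 and -0.72 for the TAZ-CAMTA1 comparisons without replicate 2). Hk1, the constitutive isozyme, was the more abundant: Hk2 made up 5.50% ± 0.0862 of the summed Hk1 and Hk2 TPM in TAZ-CAMTA1, 10.9% ± 0.272 in TAZ4A and 1.75% ± 0.250 in Control. Hk1 passed in no comparison over all 9 libraries (0.07, -0.13 and 0.20 for TAZ-CAMTA1 and TAZ4A against Control and for TAZ-CAMTA1 against TAZ4A). Without TAZ-CAMTA1 replicate 2 it read 0.19 (adjusted p = 0.00199), -0.13 (adjusted p = 0.0166) and 0.32 (adjusted p = 1.9e-05) in the same order.

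Phosphofructokinase commits the sugar to glycolysis and has a liver, a muscle and a platelet subunit. Pfkp, the platelet subunit, had 45.0, 40.8 and 41.5 CPM in the TAZ-CAMTA1 libraries, 35.5, 36.4 and 37.3 CPM in the libraries labelled TAZ4A and 18.9, 19.5 and 20.4 CPM in the Control libraries. Both construct groups lay wholly above Control. Pfkp rose by 1.10 ± 0.072 (adjusted p = 1.7e-05) in TAZ-CAMTA1 (1.12 without replicate 2) and 0.88 ± 0.072 (adjusted p = 3.8e-05) in TAZ4A against Control. The difference of TAZ-CAMTA1 against TAZ4A, 0.22 ± 0.072 (adjusted p = 0.0437), lost its call in 15 of 21 other settings. Pfkm, the muscle subunit, had 57.0, 61.9 and 53.9 CPM in the TAZ-CAMTA1 libraries, 41.2, 39.3 and 40.6 CPM in the libraries labelled TAZ4A and 35.01, 39.8 and 38.3 CPM in the Control libraries. Only the TAZ-CAMTA1 libraries stood clear of Control, with 0.61 ± 0.081 (adjusted p = 7.3e-04) against Control and 0.51 ± 0.081 (adjusted p = 0.00148) against TAZ4A (0.55 and 0.45 without replicate 2), while TAZ4A against Control gave 0.10 (adjusted p = 0.453). Pfkl, the liver subunit and the most abundant of the 3 in TPM, passed in no comparison over all 9 libraries, and gave 0.15 (adjusted p = 0.0394) in TAZ-CAMTA1 against Control without replicate 2. Pfkp made up 11.2% ± 1.85 of the summed TPM of the 3 subunits in TAZ-CAMTA1, 11.5% ± 0.746 in TAZ4A and 6.98% ± 0.302 in Control.

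Pfkfb3 makes fructose 2,6-bisphosphate, the activator of phosphofructokinase. It had 34.2, 22.1 and 31.5 CPM in the TAZ-CAMTA1 libraries, 32.1, 29.7 and 33.2 CPM in the libraries labelled TAZ4A and 11.7, 12.3 and 12.7 CPM in the Control libraries. Every library of the construct groups lay above Control, and the construct groups overlapped. The log2 fold change was 1.21 ± 0.15 (adjusted p = 5.3e-04) in TAZ-CAMTA1 against Control (1.39 without replicate 2), 1.34 ± 0.15 (adjusted p = 2.6e-04) in TAZ4A against Control and -0.13 ± 0.15 (adjusted p = 0.502) in TAZ-CAMTA1 against TAZ4A. Its relative Pfkfb4 had 4.16 ± 0.355 CPM in TAZ-CAMTA1, 4.47 ± 0.421 CPM in TAZ4A and 5.05 ± 0.648 CPM in Control, and passed in no comparison over all 9 libraries. Without replicate 2 it gave -0.30 (adjusted p = 0.0414) in TAZ-CAMTA1 against Control.

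The isomerases Gpi1 and Tpi1 and the aldolase Aldoa rose in TAZ-CAMTA1 against Control. Gpi1, glucose-6-phosphate isomerase, had 576, 731 and 602 CPM in the TAZ-CAMTA1 libraries, 459.9, 464 and 433 CPM in the libraries labelled TAZ4A and 428, 429 and 396 CPM in the Control libraries. TAZ-CAMTA1 lay wholly above both other groups, at 0.60 ± 0.098 (adjusted p = 0.00218) against Control and 0.48 ± 0.098 (adjusted p = 0.00523) against TAZ4A (0.50 and 0.38 without replicate 2), and TAZ4A against Control gave 0.12 (adjusted p = 0.472), or an adjusted p of 0.0380 without TAZ-CAMTA1 replicate 2. Of the junction reads of Gpi1, 27.6% mapped to several places. Junction reads gave 0.58 ± 0.092 (adjusted p = 0.00722) in TAZ-CAMTA1 against Control and 0.41 ± 0.092 (adjusted p = 0.0207) against TAZ4A. Aldoa, the aldolase of the chain, had 2022, 3130.3 and 2179 CPM in the TAZ-CAMTA1 libraries, 1868, 1915 and 1743 CPM in the libraries labelled TAZ4A and 1754, 1722 and 1506 CPM in the Control libraries. Replicate 2 was the highest TAZ-CAMTA1 library, and the rise against Control was 0.53 ± 0.16 (adjusted p = 0.0311) with it and 0.34 without it. That call was lost in 7 of 21 other settings. Once TAZ-CAMTA1 replicate 2 was left out, Aldoa gave 0.15 (adjusted p = 0.0282) in TAZ4A against Control and 0.19 (adjusted p = 0.0144) in TAZ-CAMTA1 against TAZ4A, neither of which passed with it. Aldoc reached at most 0.557 CPM and did not pass the filter on low values. Tpi1, triosephosphate isomerase, averaged 873 ± 174 CPM in TAZ-CAMTA1, 796 ± 30.1 CPM in TAZ4A and 651 ± 39.3 CPM in Control. It rose in TAZ-CAMTA1 against Control by 0.41 ± 0.13 (adjusted p = 0.0434) (0.25 without replicate 2), a call lost in 9 of 21 other settings. TAZ4A against Control gave 0.29 (adjusted p = 0.152), or an adjusted p of 5.8e-05 without TAZ-CAMTA1 replicate 2.

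Several enzymes of the payoff phase have processed copies elsewhere in the genome, and part or all of their junction reads map to several places. The share of junction reads that mapped to several places was 99.8% for Pgk1, 96.9% for Gapdh, 76.9% for Eno1, 29.0% for Ldha and 20.9% for Pkm, and all 15530 such reads of Pgam1 did so, against a median of 5.66% over 11373 genes. Of the 50-base windows of the Gapdh transcript, 82.5% occur in transcripts of 218 other annotated genes (GENCODE vM21). For Pgk1 the share was 68.0%, over 5 other genes, of which Pgk1-rs7 had the most matches. For Ldha the share was 16.6%, over 14 other genes. Gapdh stood at 9.86 ± 2.62, 12.8 ± 0.808 and 11.8 ± 0.837 TPM in TAZ-CAMTA1, TAZ4A and Control, beside 1256 ± 87.3, 1252 ± 42.0 and 989 ± 40.6 TPM for Tpi1, the step before it. For these genes, unique and multiply mapped junction reads, scaled to all junction reads of the library (junction RPM), are set beside the gene table. Multiply mapped reads may belong to a copy as well as to the gene.

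Gapdh, the glyceraldehyde phosphate dehydrogenase often used as a reference gene, had 5.12, 6.04 and 7.67 CPM in the TAZ-CAMTA1 libraries, 7.49, 8.16 and 7.15 CPM in the libraries labelled TAZ4A and 7.20, 7.95 and 6.64 CPM in the Control libraries. The groups overlapped, and it passed in no comparison (-0.21 (adjusted p = 0.289), 0.06 (adjusted p = 0.812) and -0.27 (adjusted p = 0.163) in TAZ-CAMTA1 against Control, TAZ4A against Control and TAZ-CAMTA1 against TAZ4A). In junction RPM it had 435, 573 and 476 RPM in the TAZ-CAMTA1 libraries, 469.8, 491 and 439 RPM in the libraries labelled TAZ4A and 465, 406 and 402 RPM in the Control libraries, and again passed in none.

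Pgk1, phosphoglycerate kinase, had 62.2, 108 and 108 CPM in the TAZ-CAMTA1 libraries, 65.2, 62.5 and 65.5 CPM in the libraries labelled TAZ4A and 57.3, 43.3 and 35.9 CPM in the Control libraries in the gene table. Its spread within TAZ-CAMTA1 and within Control was wide there, and it rose only in TAZ-CAMTA1 against Control, by 1.00 ± 0.23 (adjusted p = 0.0123) (0.86 without replicate 2), with 0.52 ± 0.23 (adjusted p = 0.151) in TAZ4A against Control. In junction reads it had 2597, 2540.4 and 2541 RPM in the TAZ-CAMTA1 libraries, 2651, 2704 and 2672 RPM in the libraries labelled TAZ4A and 1480.4, 1506 and 1419.6 RPM in the Control libraries. Both construct groups lay above all Control libraries with little spread, with log2 fold changes in junction reads of 0.80 ± 0.075 (adjusted p = 7.2e-04) in TAZ-CAMTA1 and 0.87 ± 0.075 (adjusted p = 2.6e-04) in TAZ4A against Control, and of -0.06 ± 0.075 (adjusted p = 0.559) in TAZ-CAMTA1 against TAZ4A.

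Pgam1, phosphoglycerate mutase, had 33.2, 26.5 and 19.1 CPM in the TAZ-CAMTA1 libraries, 39.9, 38.9 and 38.8 CPM in the libraries labelled TAZ4A and 17.5, 23.4 and 27.1 CPM in the Control libraries in the gene table. It rose in TAZ4A against Control by 0.80 ± 0.21 (adjusted p = 0.0234), a call lost in 5 of 21 other settings, and TAZ-CAMTA1 against TAZ4A gave -0.60 (adjusted p = 0.0510). The junction reads gave 0.43 ± 0.099 (adjusted p = 0.0326) in TAZ4A against Control and -0.23 ± 0.099 (adjusted p = 0.152) in TAZ-CAMTA1 against TAZ4A. Eno1, the main enolase, had 259, 475 and 296 CPM in the TAZ-CAMTA1 libraries, 295, 299 and 273 CPM in the libraries labelled TAZ4A and 206, 202 and 166 CPM in the Control libraries in the gene table. TAZ-CAMTA1 replicate 2 was far above the other libraries. The gene table gave 0.80 ± 0.21 (adjusted p = 0.0188) in TAZ-CAMTA1 against Control (0.54 without replicate 2) and 0.60 ± 0.21 (adjusted p = 0.0675) in TAZ4A against Control (0.60 (adjusted p = 9.8e-06) without TAZ-CAMTA1 replicate 2). Junction reads gave 0.73 ± 0.15 (adjusted p = 0.0208) in TAZ-CAMTA1 and 0.74 ± 0.15 (adjusted p = 0.0201) in TAZ4A against Control. Eno2, the neuronal enolase, had 7.87, 9.17 and 7.98 CPM in the TAZ-CAMTA1 libraries, 5.14, 5.97 and 5.003 CPM in the libraries labelled TAZ4A and 3.53, 4.19 and 4.29 CPM in the Control libraries. In TPM Eno2 averaged 7.37 ± 0.289 in TAZ-CAMTA1, 5.14 ± 0.478 in TAZ4A and 3.70 ± 0.394 in Control. It rose against Control in TAZ-CAMTA1 by 0.97 ± 0.11 (adjusted p = 3.5e-04) (0.91 without replicate 2) and in TAZ4A by 0.38 ± 0.11 (adjusted p = 0.0377), and the TAZ4A call was lost in 8 of 21 other settings. TAZ-CAMTA1 against TAZ4A gave 0.59 ± 0.11 (adjusted p = 0.00376) (0.53 without replicate 2), a call lost in 2 of 21 other settings.

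**Figure D4:**
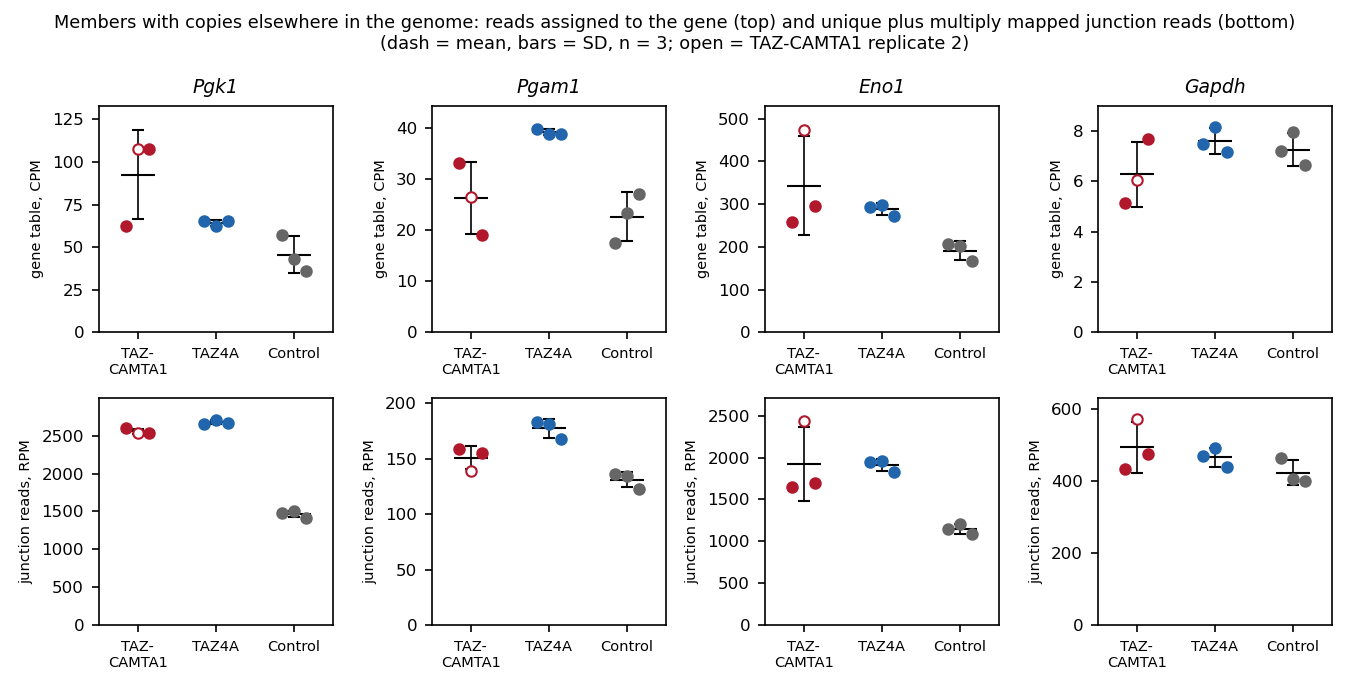
Pgk1, Pgam1, Eno1 and Gapdh in the gene table (top, CPM) and as unique plus multiply mapped junction reads (bottom, RPM) by library of TAZ-CAMTA1, TAZ4A and Control, with mean and SD (n = 3) and TAZ-CAMTA1 replicate 2 as open circles. For Pgk1 the 3 Control libraries lie between 1419.6 and 1506 RPM in junction reads and all 6 others between 2540.4 and 2704 RPM.

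At the end of the chain, Pkm, pyruvate kinase of muscle and most other tissues, had 2354, 2757 and 2424 CPM in the TAZ-CAMTA1 libraries, 2331, 2359 and 2174 CPM in the libraries labelled TAZ4A and 2587, 2537 and 2365 CPM in the Control libraries. The groups were close, and it passed in no comparison over all 9 libraries (0.01 (adjusted p = 0.961), -0.13 (adjusted p = 0.340) and 0.13 (adjusted p = 0.238) in TAZ-CAMTA1 against Control, TAZ4A against Control and TAZ-CAMTA1 against TAZ4A). Without TAZ-CAMTA1 replicate 2, TAZ4A against Control had an adjusted p of 0.0222 at the same difference. In TPM it was at the level of Aldoa, the other most abundant member, with 2246 ± 97.5, 2217 ± 87.1 and 2336 ± 86.3 TPM for Pkm and 3076 ± 362, 2543 ± 112 and 2213 ± 153 TPM for Aldoa in TAZ-CAMTA1, TAZ4A and Control. The transcript takes either exon 9 (PKM1, the form of adult muscle) or exon 10 (PKM2, the form of growing cells). The exons are shown because the choice between them is read from the junctions: both lie on chromosome 9, plus strand (GRCm38), at chr9:59675029-59675195 and chr9:59675568-59675734. They are 167 bases each with 103 identical positions (61.7%), and capitals mark the bases that differ.
Pkm exon 9: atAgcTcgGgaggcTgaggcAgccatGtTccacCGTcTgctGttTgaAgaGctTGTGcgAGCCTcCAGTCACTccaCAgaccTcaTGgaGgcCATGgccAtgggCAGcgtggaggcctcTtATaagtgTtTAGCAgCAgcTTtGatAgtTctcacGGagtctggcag
Pkm exon 10: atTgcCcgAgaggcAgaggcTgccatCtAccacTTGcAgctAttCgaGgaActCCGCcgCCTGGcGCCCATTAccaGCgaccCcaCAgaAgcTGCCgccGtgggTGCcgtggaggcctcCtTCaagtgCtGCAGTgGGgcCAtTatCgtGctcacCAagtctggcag

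The exon 10 share of unique reads across the junctions from exon 8 to exon 9 or exon 10 was 90.8%, 90.5% and 89.5% in TAZ-CAMTA1, 89.2%, 89.6% and 90.8% in TAZ4A and 91.6%, 91.9% and 91.5% in Control, from 1619 to 2758 reads a library. The 95% Wilson intervals of single libraries, which cover counting error only, ran from 87.9% to 92.9% at their widest ends. In these junctions all libraries used mostly exon 10. Reads from exon 10 to exon 11 were mostly multiply mapped, with 3 unique and 540 multiply mapped in Control replicate 1. In TAZ-CAMTA1 replicate 3 they were 0 and 498. The junctions into exon 11 were not used for the share, so its level and differences rest on the exon 8 side alone. In unique reads of these junctions from exon 8, those of both construct groups lay below Control, with differences of -1.37 percentage points in TAZ-CAMTA1 and -1.81 in TAZ4A. An exact two-sided permutation test gave p = 0.1 for each, the smallest that 3 against 3 libraries allow, and p = 0.6 between TAZ-CAMTA1 and TAZ4A (difference 0.443 points). With multiply mapped reads added, the exact p was 0.1 in TAZ-CAMTA1 and 0.2 in TAZ4A against Control, and TAZ4A replicate 3 at 89.56% lay just above Control replicate 3 at 89.52%, so TAZ4A and Control then overlapped. A threshold of 0.05 cannot be reached with this design.

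Ldha turns pyruvate to lactate. It had 874, 1082 and 893 CPM in the TAZ-CAMTA1 libraries, 1035, 1044 and 1000.3 CPM in the libraries labelled TAZ4A and 607, 617 and 587 CPM in the Control libraries. All libraries of both construct groups lay above Control, and the construct groups overlapped. The log2 fold change was 0.65 ± 0.091 (adjusted p = 9.2e-04) in TAZ-CAMTA1 against Control (0.55 without replicate 2) and 0.76 ± 0.091 (adjusted p = 3.4e-04) in TAZ4A against Control. TAZ-CAMTA1 against TAZ4A gave -0.12 (adjusted p = 0.326), or -0.22 (adjusted p = 4.2e-04) without replicate 2. In junction reads, copies included, the rises against Control were 0.66 ± 0.089 (adjusted p = 0.00388) in TAZ-CAMTA1 and 0.87 ± 0.089 (adjusted p = 5.9e-04) in TAZ4A. Pdk1 blocks the entry of pyruvate into the mitochondrial cycle. It had 294, 208 and 289.5 CPM in the TAZ-CAMTA1 libraries, 239.6, 236 and 252 CPM in the libraries labelled TAZ4A and 166, 171 and 179.9 CPM in the Control libraries. It rose against Control in TAZ-CAMTA1 by 0.60 ± 0.13 (adjusted p = 0.00851) (0.76 without replicate 2, the lowest of its libraries) and in TAZ4A by 0.49 ± 0.13 (adjusted p = 0.0236), and the TAZ4A call was lost in 8 of 21 other settings. TAZ-CAMTA1 against TAZ4A gave 0.11 (adjusted p = 0.540), or 0.27 (adjusted p = 2.3e-04) without replicate 2.

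Neither HIF factor had mRNA called higher against Control over all 9 libraries, and Epas1 fell in both construct groups. Hif1a had 564, 336 and 559 CPM in the TAZ-CAMTA1 libraries, 657, 639 and 688 CPM in the libraries labelled TAZ4A and 576, 594 and 609.5 CPM in the Control libraries. Replicate 2 was the lowest TAZ-CAMTA1 library by far, and no comparison over all 9 libraries passed (-0.33 (adjusted p = 0.204), 0.16 (adjusted p = 0.614) and -0.48 (adjusted p = 0.0671) in TAZ-CAMTA1 against Control, TAZ4A against Control and TAZ-CAMTA1 against TAZ4A). Without that library TAZ-CAMTA1 against Control gave -0.08 (adjusted p = 0.152), TAZ4A against Control 0.16 (adjusted p = 0.00390) and TAZ-CAMTA1 against TAZ4A -0.24 (adjusted p = 3.4e-04). Epas1, which encodes HIF-2α and is typical of endothelium, had 46.3, 33.6 and 42.0 CPM in the TAZ-CAMTA1 libraries, 21.5, 22.4 and 20.4 CPM in the libraries labelled TAZ4A and 60.3, 58.1 and 62.8 CPM in the Control libraries. The groups did not overlap, with Control highest and TAZ4A lowest. Its log2 fold change was -0.58 ± 0.12 (adjusted p = 0.00588) in TAZ-CAMTA1 (-0.45 without replicate 2) and -1.47 ± 0.12 (adjusted p = 3.5e-05) in TAZ4A against Control, and Epas1 was higher in TAZ-CAMTA1 than in TAZ4A by 0.90 ± 0.12 (adjusted p = 5.0e-04) (1.02 without replicate 2). In TPM it made up 7.08% ± 0.982 of the summed Hif1a and Epas1 level in TAZ-CAMTA1, 2.81% ± 0.226 in TAZ4A and 8.31% ± 0.262 in Control. The TAZ-CAMTA1 libraries had 6.81%, 8.18% and 6.27%, with replicate 2 highest.

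The prolyl hydroxylases that mark the factors for destruction, which are induced by HIF as a feedback, were high in TAZ-CAMTA1. Egln1 (PHD2), with the promoter shown above, had 107, 124 and 97.5 CPM in the TAZ-CAMTA1 libraries, 49.3, 51.3 and 53.0 CPM in the libraries labelled TAZ4A and 43.0, 47.7 and 48.6 CPM in the Control libraries. Egln3 (PHD3) had 490.0, 490.2 and 485 CPM in the TAZ-CAMTA1 libraries, 227, 237 and 235 CPM in the libraries labelled TAZ4A and 268, 269 and 268 CPM in the Control libraries. In both genes the TAZ-CAMTA1 libraries lay above all others. Egln1 rose by 1.22 ± 0.10 (adjusted p = 6.2e-05) against Control and 1.08 ± 0.10 (adjusted p = 7.4e-05) against TAZ4A, and Egln3 by 0.86 ± 0.060 (adjusted p = 2.3e-05) and 1.07 ± 0.060 (adjusted p = 4.5e-06). Without replicate 2 the values were 1.13 and 0.99 for Egln1 and 0.86 and 1.06 for Egln3. In TAZ4A against Control Egln1 gave 0.14 (adjusted p = 0.379), or 0.14 (adjusted p = 0.0443) without TAZ-CAMTA1 replicate 2, and Egln3 fell, at -0.20 ± 0.060 (adjusted p = 0.0373), a call lost in 12 of 21 other settings.

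Bnip3, a receptor for the removal of mitochondria by autophagy, had the largest log2 fold change of all members in TAZ-CAMTA1 against Control. It had 104, 111 and 91.2 CPM in the TAZ-CAMTA1 libraries, 34.1, 31.4 and 33.6 CPM in the libraries labelled TAZ4A and 16.9, 18.8 and 17.4 CPM in the Control libraries. The order TAZ-CAMTA1 above TAZ4A above Control held with no overlap, at 5.78-fold the Control mean in TAZ-CAMTA1 and 1.87-fold in TAZ4A. The log2 fold changes were 2.496 ± 0.091 (adjusted p = 9.7e-07) and 0.88 ± 0.091 (adjusted p = 1.5e-04) against Control and 1.61 ± 0.091 (adjusted p = 4.7e-06) in TAZ-CAMTA1 against TAZ4A (2.43 and 1.55 without replicate 2). Bnip3 has copies as well (51.9% of its junction reads mapped to several places), and junction reads gave 2.38 ± 0.17 (adjusted p = 1.9e-04) in TAZ-CAMTA1 and 1.04 ± 0.17 (adjusted p = 0.00688) in TAZ4A against Control.

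Its relative Bnip3l (NIX) had 322, 335 and 305 CPM in the TAZ-CAMTA1 libraries, 187, 185 and 193 CPM in the libraries labelled TAZ4A and 199, 216 and 217 CPM in the Control libraries. It rose in TAZ-CAMTA1 by 0.60 ± 0.070 (adjusted p = 3.5e-04) against Control and 0.77 ± 0.070 (adjusted p = 6.8e-05) against TAZ4A (0.57 and 0.73 without replicate 2), and TAZ4A against Control gave -0.16 (adjusted p = 0.142), or an adjusted p of 0.00647 without TAZ-CAMTA1 replicate 2. With 83.001% of junction reads mapped to several places, the junction values were 0.41 ± 0.18 (adjusted p = 0.201) against Control over all 9 libraries and 0.62 ± 0.078 (adjusted p = 5.5e-06) without TAZ-CAMTA1 replicate 2. Higd1a, a small protein of the inner mitochondrial membrane, had 31.7, 46.5 and 25.3 CPM in the TAZ-CAMTA1 libraries, 23.7, 23.5 and 24.6 CPM in the libraries labelled TAZ4A and 14.998, 18.2 and 17.4 CPM in the Control libraries. Replicate 2 was the highest TAZ-CAMTA1 library. Higd1a rose in TAZ-CAMTA1 against Control by 0.97 ± 0.19 (adjusted p = 0.00580) (0.74 without replicate 2), and TAZ4A against Control gave 0.50 (adjusted p = 0.103), or 0.50 (adjusted p = 8.4e-05) without TAZ-CAMTA1 replicate 2. TAZ-CAMTA1 against TAZ4A gave 0.48 (adjusted p = 0.0846), or 0.24 (adjusted p = 0.0326) without that library. For Higd1a 51.3% of junction reads mapped to several places. Junction reads over all 9 libraries gave 1.04 ± 0.25 (adjusted p = 0.0382) in TAZ-CAMTA1 against Control.

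**Figure D5:**
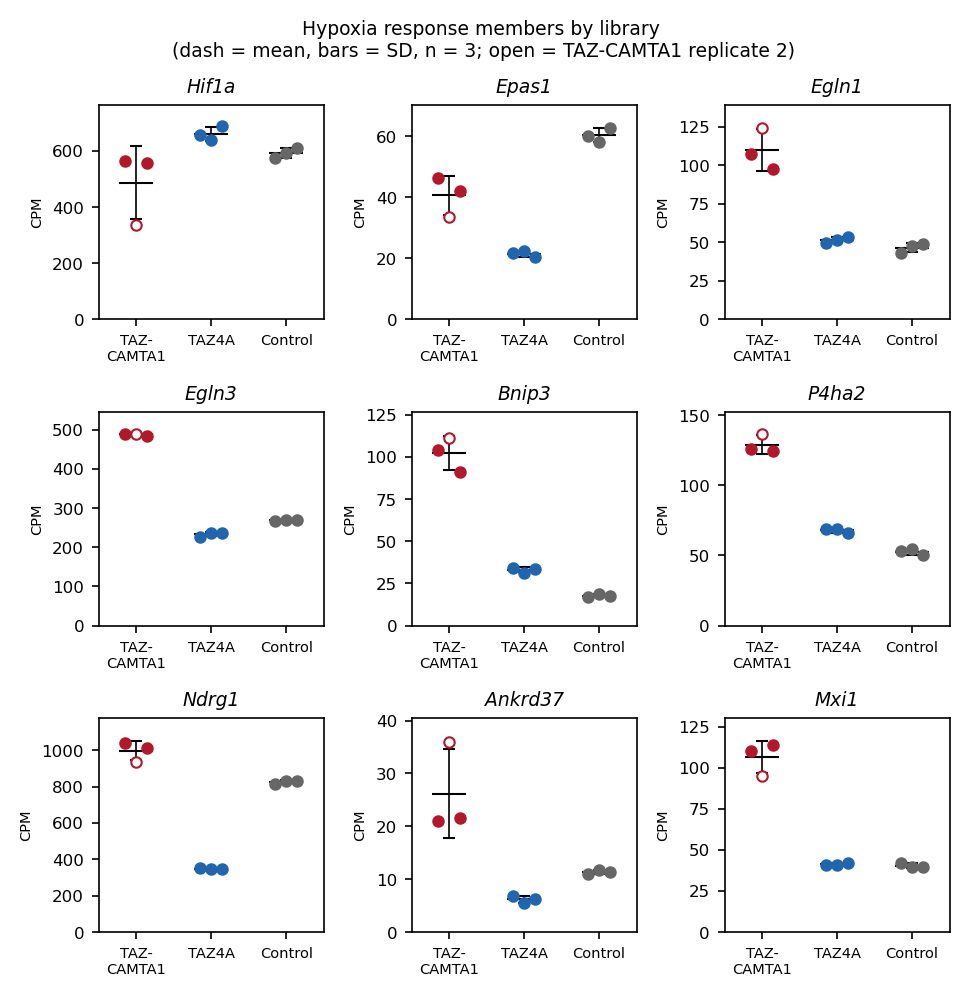
Levels (CPM, vertical axes) of 9 hypoxia response members in the 3 libraries of TAZ-CAMTA1, TAZ4A and Control, with group mean and SD (n = 3) and TAZ-CAMTA1 replicate 2 as open circles. Ndrg1, Ankrd37 and Epas1 lie below Control in TAZ4A, and Egln1, Egln3, Bnip3, P4ha2, Ndrg1, Ankrd37 and Mxi1 above it in TAZ-CAMTA1.

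The collagen hydroxylase subunits P4ha1 and P4ha2 rose in both construct groups, and Ero1l in TAZ-CAMTA1. P4ha1, a catalytic subunit of the collagen prolyl 4-hydroxylase, had 189.7, 179 and 174 CPM in the TAZ-CAMTA1 libraries, 175, 179.6 and 184 CPM in the libraries labelled TAZ4A and 106, 111 and 114 CPM in the Control libraries. The construct groups overlapped and both lay above Control, at 0.71 ± 0.069 (adjusted p = 1.3e-04) in TAZ-CAMTA1 and 0.70 ± 0.069 (adjusted p = 1.1e-04) in TAZ4A, with 0.01 ± 0.069 (adjusted p = 0.894) in TAZ-CAMTA1 against TAZ4A (0.72 and 0.02 for the TAZ-CAMTA1 comparisons without replicate 2). A difference that misses the threshold does not show that the groups are alike. P4ha2, the sister subunit, had 126, 137 and 124 CPM in the TAZ-CAMTA1 libraries, 69.1, 69.0 and 65.7 CPM in the libraries labelled TAZ4A and 53.0, 54.6 and 50.4 CPM in the Control libraries. The groups were fully separate in the order TAZ-CAMTA1, TAZ4A, Control, with 1.28 ± 0.071 (adjusted p = 6.5e-06) and 0.36 ± 0.071 (adjusted p = 0.00557) against Control and 0.92 ± 0.071 (adjusted p = 2.8e-05) in TAZ-CAMTA1 against TAZ4A (1.24 and 0.88 for the TAZ-CAMTA1 comparisons without replicate 2). Ero1l, the oxidase that makes disulfide bonds in the endoplasmic reticulum, had 203, 102 and 191 CPM in the TAZ-CAMTA1 libraries, 100.1, 95.5 and 103 CPM in the libraries labelled TAZ4A and 63.2, 66.2 and 76.3 CPM in the Control libraries. TAZ-CAMTA1 replicate 2 lay among the TAZ4A libraries, and the other TAZ-CAMTA1 libraries far above them. Ero1l rose in TAZ-CAMTA1 against Control by 1.20 ± 0.23 (adjusted p = 0.00507), or 1.52 without replicate 2. TAZ-CAMTA1 against TAZ4A gave 0.67 (adjusted p = 0.0517), or 0.98 (adjusted p = 3.4e-09) without it, and TAZ4A against Control 0.54 (adjusted p = 0.140), or 0.54 (adjusted p = 1.3e-06) without it.

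Ndrg1 and Ankrd37 fell in TAZ4A and rose in TAZ-CAMTA1 against Control, and Mxi1 rose in TAZ-CAMTA1. Ndrg1, a stress-induced gene linked to growth arrest, had 1041, 937 and 1013 CPM in the TAZ-CAMTA1 libraries, 352, 346 and 345 CPM in the libraries labelled TAZ4A and 816, 829 and 831 CPM in the Control libraries. TAZ4A was at 0.421 times the Control mean, and TAZ-CAMTA1 lay above Control by less. The log2 fold changes were 0.27 ± 0.066 (adjusted p = 0.0145) in TAZ-CAMTA1 and -1.25 ± 0.066 (adjusted p = 2.9e-06) in TAZ4A against Control and 1.52 ± 0.066 (adjusted p = 9.5e-07) in TAZ-CAMTA1 against TAZ4A (0.31 and 1.56 for the TAZ-CAMTA1 comparisons without replicate 2). The small rise in TAZ-CAMTA1 against Control lost its call in 6 of 21 other settings, and junction reads over all 9 libraries gave -0.00704 there. Junction reads gave 944, 403 and 1028 RPM in the TAZ-CAMTA1 libraries, and a log2 fold change of 0.42 ± 0.067 (adjusted p = 7.3e-05) against Control without replicate 2.

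Ankrd37, a small ankyrin repeat protein and a direct HIF-1 target in human cells, had 21.0, 35.9 and 21.7 CPM in the TAZ-CAMTA1 libraries, 6.75, 5.53 and 6.26 CPM in the libraries labelled TAZ4A and 10.9, 11.7 and 11.3 CPM in the Control libraries. No groups overlapped, and replicate 2 was the highest TAZ-CAMTA1 library. It rose by 1.13 ± 0.19 (adjusted p = 0.00258) in TAZ-CAMTA1 (0.89 without replicate 2), fell in TAZ4A against Control, at -0.83 ± 0.19 (adjusted p = 0.0133), and was higher in TAZ-CAMTA1 than in TAZ4A by 1.96 ± 0.19 (adjusted p = 1.0e-04) (1.71 without replicate 2). Mxi1, a repressor that competes with MYC for its partner MAX, had 110.3, 95.1 and 114 CPM in the TAZ-CAMTA1 libraries, 41.0, 40.7 and 42.3 CPM in the libraries labelled TAZ4A and 42.2, 39.6 and 39.4 CPM in the Control libraries. The TAZ-CAMTA1 libraries lay above the rest, and TAZ4A and Control overlapped, with 1.38 ± 0.083 (adjusted p = 1.1e-05) and 1.35 ± 0.083 (adjusted p = 7.9e-06) for TAZ-CAMTA1 against Control and TAZ4A and 0.03 (adjusted p = 0.833) for TAZ4A against Control. Without replicate 2 the Mxi1 values were 1.46 and 1.43.

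Adm, the vasoactive peptide adrenomedullin, had 170.0, 146 and 172 CPM in the TAZ-CAMTA1 libraries, 185, 189 and 181 CPM in the libraries labelled TAZ4A and 125, 123 and 117 CPM in the Control libraries. It rose in both construct groups, by 0.41 ± 0.081 (adjusted p = 0.00524) in TAZ-CAMTA1 and 0.60 ± 0.081 (adjusted p = 7.1e-04) in TAZ4A against Control, with -0.19 (adjusted p = 0.0972) in TAZ-CAMTA1 against TAZ4A. Without replicate 2 Adm gave 0.49 in TAZ-CAMTA1 against Control and -0.11 (adjusted p = 0.0469) against TAZ4A. Car9, carbonic anhydrase IX, a common marker of hypoxic tumour cells, averaged 5.97 ± 0.734 CPM in TAZ-CAMTA1, 5.30 ± 0.286 CPM in TAZ4A and 4.38 ± 0.821 CPM in Control, and its rise in TAZ-CAMTA1 against Control of 0.41 ± 0.14 (adjusted p = 0.0494) (0.32 without replicate 2) lost its call in 14 of 21 other settings. Ddit4, an inhibitor of mTORC1 signalling, and Kdm3a, a histone demethylase, passed in no comparison over all 9 libraries. Kdm3a had 133, 76.3 and 132 CPM in TAZ-CAMTA1, with replicate 2 lowest, and without that library TAZ-CAMTA1 against TAZ4A gave 0.27 (adjusted p = 0.00123).

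Outside the 40 members, 76 further genes of the same pathways were counted, of which 56 were tested. These lists too were chosen with earlier results of these data known. In TAZ-CAMTA1 against Control 22 rose and 14 fell (all genes tested 16.8% and 15.3%), in TAZ4A against Control 14 rose and 8 fell (13.2% and 11.7%), and in TAZ-CAMTA1 against TAZ4A 16 rose and 13 fell (19.4% and 18.5%). Without TAZ-CAMTA1 replicate 2 the counts were 27 and 22 (all genes 28.3% and 32.6%), 22 and 20 (28.1% and 30.6%), and 25 and 18 (30.5% and 32.5%). Of 23 other tested HIF targets, 16 rose and 4 fell in TAZ-CAMTA1 (16.8% and 15.3% of all genes) and 10 and 4 did in TAZ4A against Control (13.2% and 11.7%). With that library left out they were 18 and 4 in TAZ-CAMTA1 (28.3% and 32.6% of all genes) and 14 and 5 in TAZ4A (28.1% and 30.6%). In TAZ-CAMTA1 against TAZ4A 11 of these targets rose and 3 fell (19.4% and 18.5% of all genes). Without replicate 2 they were 15 and 3 (30.5% and 32.5%). Genes called with an absolute log2 fold change of at least 1 are named here as examples, not in every comparison. The HIF targets named for TAZ-CAMTA1 all rose, while 4 of the 23 fell there against Control. Vegfa, the endothelial growth factor, had 35.3 ± 5.57 CPM in TAZ-CAMTA1 and 12.2 ± 0.754 CPM in Control (a difference of 1.49 ± 0.12 on the log2 scale, adjusted p = 5.6e-05, and 1.62 without replicate 2), and in TAZ4A against Control a log2 fold change of 1.504. Stc1, a secreted glycoprotein, had 77.3 ± 21.9 CPM in TAZ-CAMTA1 and 16.4 ± 0.846 CPM in Control (a difference of 2.16 ± 0.19 on the log2 scale, adjusted p = 9.6e-05, and 2.42 without replicate 2), and Plod2, a collagen lysyl hydroxylase, 63.5 ± 14.0 CPM in TAZ-CAMTA1 and 17.6 ± 0.925 CPM in Control (a difference of 1.80 ± 0.15 on the log2 scale, adjusted p = 7.4e-05, and 2.00 without replicate 2). Bhlhe40, a repressor of the clock, went down in TAZ4A, with 34.5 ± 0.0907 CPM in TAZ4A and 80.4 ± 2.14 CPM in Control (a difference of -1.21 ± 0.078 on the log2 scale, adjusted p = 9.4e-06). Arnt2, a relative of the HIF partner ARNT, had 1.37 ± 0.434 CPM in TAZ-CAMTA1 and 4.31 ± 0.174 CPM in Control (a difference of -1.39 ± 0.16 on the log2 scale, adjusted p = 4.3e-04, and -1.18 without replicate 2). Cited2, which competes with HIF for its coactivators, had 90.8 ± 0.663 CPM in TAZ4A and 25.4 ± 0.718 CPM in Control (a difference of 1.82 ± 0.13 on the log2 scale, adjusted p = 2.4e-05). Of the 7 pentose phosphate genes, the branch that leaves glycolysis at glucose 6-phosphate, 3 fell in TAZ-CAMTA1 and 2 fell in TAZ4A against Control, where 15.3% and 11.7% of all genes fell. When TAZ-CAMTA1 replicate 2 was left out, the fall was called for 5 of them in each (32.6% and 30.6% of all genes). Of the 11 genes of pyruvate entry into mitochondria, 1 rose and 4 fell in TAZ-CAMTA1 against Control (16.8% and 15.3% of all genes), or 2 and 7 without replicate 2 (28.3% and 32.6%).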

How the data were processed

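Poly-A RNA of 9 MS1 libraries was made into stranded libraries and sequenced on an Illumina HiSeq, per the labels. The submitters' processing notes name bcl2fastq, FastQC, STAR, featureCounts and edgeR on build mm10 (GRCm38), with versions, settings and use of strand not given in the sources used here, so overlapping genes are not told apart. Each gene value is a deposited signal that the authors call CPM, a read count over a scaled library size. Every value was a whole multiple of that of 1 read (100% within 0.01), so whole counts were recovered from the deposited table. TPM values were scaled for gene length by the authors. The authors' deposited table of comparisons holds log2 ratios and p-values with false discovery rates, quoted as theirs. Deposited STAR junction files hold read counts across introns.

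Groups came from the sample titles. limma-trend (limma 3.58.1, R 4.3.3, robust) was run on log2(CPM + 0.5) of the iGenomes gene table, chosen as the table that lists the members by symbol, as 1 fit of all 9 libraries (6 residual degrees of freedom). The 12350 genes that reached 0.5 CPM in 3 or more libraries were tested, with Benjamini-Hochberg adjustment over all of them and a threshold of 0.05. Fold changes on this scale understate low genes. The design assumed CPM, and the test stayed as planned when sums differed between libraries. The other settings were edgeR 4.0.16 on the recovered counts, pseudocounts of 0.1 and 2, no filter, TPM, the GENCODE table, equal sums, only the libraries compared, a replicate block, library weights, each library left out, and, added after the data were seen, junction reads (with and without TAZ-CAMTA1 replicate 2) and the shares within gene families. The fit of the gene table was tested on simulated counts with known changes in TAZ4A and no deviating library. Python 3.11.15 handled tables and sequences. Members, lists and the rule for naming genes were chosen with earlier results of these data known. Values in every library are given for members called with an absolute log2 fold change of at least 0.5 in any comparison, with or without TAZ-CAMTA1 replicate 2, and for Hif1a, Epas1, Gapdh, Ldha and Pkm, and the others by means or counts.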

Additional observations from a re-analysis of the deposited data

How the results depend on the processing

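The 62 called member changes held direction in every setting that tested them, except 1, and 31 of them passed in all 21 settings. The exception was Ndrg1 in TAZ-CAMTA1 against Control, at -0.00704 in junction reads of all 9 libraries. It was 0.42 in junction reads without TAZ-CAMTA1 replicate 2 (the cause was not tested). Without a single library the members higher ranged from 21 to 29 in TAZ-CAMTA1 against Control, 8 to 20 in TAZ4A against Control and 14 to 21 in TAZ-CAMTA1 against TAZ4A, and those lower from 2 to 3, 2 to 8 and 2 to 5. Leaving out TAZ-CAMTA1 replicate 2 gave the upper end of each range. Over all genes the calls, higher and lower together, ranged from 2612 to 7458, 1935 to 7193 and 3078 to 7721 in the same order. Members higher in TAZ4A against Control were 11, but 21 with the 6 libraries compared, 21 with library weights and 20 in junction reads with TAZ-CAMTA1 replicate 2 left out. Those lower were 5, but 8, 9 and, in junction reads of all libraries, 0. The calls over all genes grew too, from 3077 of 12350 to 7176 of 12146 with the 6 libraries compared. With library weights they were 7432 of 12350. In junction reads with TAZ-CAMTA1 replicate 2 left out, 22.9% of all genes rose and 14.9% fell. For TAZ-CAMTA1 against Control junction reads gave 17 higher (27 in the gene table) and 0 lower (2). For TAZ-CAMTA1 against TAZ4A the 2 lower became 4 with TPM, 4 with the GENCODE table, 7 with library weights, 0 in junction reads and 6 there with TAZ-CAMTA1 replicate 2 left out. The calls over all genes were 4684 of 12350, but 4329 of 12350 with TPM and 4882 of 13246 with the GENCODE table. With library weights they were 8272 of 12350. Junction reads over all 9 libraries called fewer of all genes too (5.52% higher and 2.66% lower in TAZ4A against Control). The Pkm exon 10 differences ranged without a single library from -1.64 to -0.99 points in TAZ-CAMTA1 against Control, -2.29 to -1.46 in TAZ4A against Control and 0.0950 to 0.923 in TAZ-CAMTA1 against TAZ4A.

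Same-numbered libraries deviated together in only some pairs (correlations of -0.12 to 0.523), so the numbers were not taken to pair them. With the replicate block members higher were 26, 11 and 15 and members lower 2, 4 and 2 in TAZ-CAMTA1 against Control, TAZ4A against Control and TAZ-CAMTA1 against TAZ4A. The calls over all 12350 genes were 3881, 2890 and 4619 with the block and 3966, 3077 and 4684 without it. Of the 62 changes 3 lost their call with the block. Slc2a3 and Aldoc were left out by the filter on low values. Reads that map to several places limit Gapdh, Pgk1, Pgam1, Eno1, Bnip3, Bnip3l and Higd1a, with over 50% of junction reads of that kind. In Gpi1, Ldha and Pkm the share was over 20%.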
